A study of Mus musculus with 8 samples.

Results

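The mitochondrial genome of the mouse carries 37 genes, and all of them were listed in the 2 count tables. They were chosen by symbol, as every row whose name starts with mt-, and made up 37 of the 54146 gene rows. They comprise 13 messenger RNAs (mRNAs), 2 ribosomal RNAs (rRNAs) and 22 transfer RNAs (tRNAs), each of which matched its annotated identifier on chromosome M of the GRCm38 (mm10) build.

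Mitochondrial DNA is transcribed from both strands into long precursors, which are cut at the tRNAs to release the individual mRNAs and rRNAs. Most released mRNAs receive a short poly(A) tail, which in several of them also completes the stop codon, and their steady levels are set largely by how fast each one is degraded. The encoded proteins are core subunits of respiratory complexes I, III and IV and of the ATP synthase (complex V), while every protein needed to transcribe, process and translate these RNAs is imported from the nucleus. In single-cell libraries the share of mitochondrial molecules in a cell is also used as a sign of leaky or damaged cells, since cytoplasmic RNA is lost before RNA enclosed in mitochondria.

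Mouse embryonic stem (ES) cells derived from the inner cell mass (ICM), of the wild-type E14 line, were grown for 2 days on feeder fibroblasts (MEF) in LIF/2i medium, which holds ES cells in the naive pluripotent state. The Control group was untreated, and the other group received CX-5461, a compound that blocks the polymerase (Pol I) which makes nuclear-encoded ribosomal RNA. No allele differed between the groups, feeder cells were present in both, and the dose and hours of CX-5461 were not given in the labels of these libraries. The question addressed here is whether the amount of mitochondrial RNA, and the balance between its transcripts, differed between treated and untreated cells.

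The labels list 4 samples per condition, but the deposited tables hold 1 matrix per condition with no map from cells to samples, and the reporting form gives 1 biological replicate for the single-cell data, so each condition counted as 1 library. No test between conditions was therefore possible, and every interval below is a 95% interval that covers counting error only. After a minimum of 500 unique molecular identifiers (UMIs) per barcode, 3830 of 3838 Control barcodes and all 4922 CX-5461 barcodes remained, with 49606652 and 69841836 UMIs and a median of 12830.5 and 13952 UMIs per cell. A list of 12 ES cell markers summed to 7081 and 7725 CPM (a gene's UMIs scaled to the same library total), with Pou5f1, a defining pluripotency factor, at 839 and 696 CPM. A list of 16 feeder fibroblast markers summed to 3099 CPM in Control and 2077 CPM in CX-5461.

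Of the 37 genes, 15 were detected, namely the 13 mRNAs and both rRNAs. All 22 tRNAs, which are 59 to 75 bases long in the annotation, were at 0 UMIs in both libraries, which allows at most 0.0605 CPM per tRNA in Control and 0.0430 CPM in CX-5461 (a floor of 3 counts per library). Each of the 15 detected transcripts had at least 200 UMIs over both libraries, the minimum used for all genes, so none was lost to that filter. None of the mitochondrial counts was marked as shared between genes in the column of the tables that sums such counts, against 0.189% and 0.225% of all counts.

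The mt-Atp8 gene (ENSMUSG00000064356.3, chrM:7766-7969) encodes a small subunit of the ATP synthase, and its last 43 bases are also the first bases of mt-Atp6. The mt-Nd4l gene (ENSMUSG00000065947.3, chrM:9877-10173) encodes a small complex I subunit and ends in 7 bases that also begin mt-Nd4. Both pairs are known to stay joined in 1 bicistronic mRNA, so the counts of these pairs depend on how reads were divided between overlapping annotations. The complete annotated sequences of both genes are shown because they carried some of the largest differences between the libraries, with the bases shared with the downstream gene in capitals.
mt-Atp8: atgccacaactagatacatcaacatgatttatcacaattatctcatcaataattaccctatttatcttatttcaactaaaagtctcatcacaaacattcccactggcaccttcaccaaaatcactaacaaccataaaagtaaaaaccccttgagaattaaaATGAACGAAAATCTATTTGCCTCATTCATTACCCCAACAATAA
mt-Nd4l: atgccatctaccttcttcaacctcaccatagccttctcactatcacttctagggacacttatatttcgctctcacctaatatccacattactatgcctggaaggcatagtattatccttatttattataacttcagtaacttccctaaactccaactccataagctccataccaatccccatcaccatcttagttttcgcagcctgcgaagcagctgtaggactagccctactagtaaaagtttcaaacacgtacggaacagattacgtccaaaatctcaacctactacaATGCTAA

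The 3′ ends of 7 other transcripts are given because a 3′ protocol counts molecules from there. Each line holds the last 60 bases of the annotated transcript, 5′ to 3′ on the sense strand, with the last annotated codon or its first base in capitals. The mt-Nd3, mt-Co2, mt-Atp6, mt-Nd1 and mt-Nd2 genes end in a complete stop codon, whereas mt-Co3 and mt-Cytb end in a single T that the poly(A) tail extends to a stop.
mt-Nd3: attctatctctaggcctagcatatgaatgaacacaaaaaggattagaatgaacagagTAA
mt-Co2: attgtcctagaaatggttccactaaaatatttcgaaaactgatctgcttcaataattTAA
mt-Atp6: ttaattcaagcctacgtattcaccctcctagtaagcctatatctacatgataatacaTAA
mt-Nd1: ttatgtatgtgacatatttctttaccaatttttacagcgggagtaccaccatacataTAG
mt-Nd2: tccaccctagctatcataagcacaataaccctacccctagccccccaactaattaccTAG
mt-Co3: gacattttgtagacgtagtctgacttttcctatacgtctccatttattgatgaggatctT
mt-Cytb: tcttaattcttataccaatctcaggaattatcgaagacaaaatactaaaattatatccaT

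The mt-Nd6 gene (chrM:13552-14070) is the only mRNA on the minus strand, and its 3′ end is complementary to the last 14 bases of mt-Nd5 (chrM:11742-13565). It also stood apart in composition, with 22.2% A, the lowest of the 13 mRNAs, and a longest run of 3 A. The last 60 bases of both transcripts are shown with the complementary stretch in capitals, each on its own sense strand.
mt-Nd5: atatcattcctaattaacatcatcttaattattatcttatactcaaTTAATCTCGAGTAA
mt-Nd6: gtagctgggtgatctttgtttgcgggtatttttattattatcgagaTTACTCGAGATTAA

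Mitochondrial RNA took a larger share of all molecules in the CX-5461 library. Mitochondrial UMIs were 1298614 of the Control UMIs, a share of 2.62% (interval 2.61 to 2.62%), and 3348280 of the CX-5461 UMIs, a share of 4.79% (interval 4.79 to 4.80%). The log2 ratio of the shares was 0.87. In single cells the median share was 2.36% in Control (quartiles 1.71 and 8.69%) and 4.16% in CX-5461 (quartiles 3.56 and 4.999%). The median number of mitochondrial UMIs in a cell was 302 in Control (quartiles 228 and 408) and 620 in CX-5461 (quartiles 495 and 795), so these quartile ranges did not overlap. The median of nuclear-encoded UMIs per cell was much closer, at 12532 and 13379. Most single genes were also somewhat higher in CX-5461 on the CPM scale, with a median log2 ratio of 0.34 over 12399 genes, and scaling by trimmed mean of M values (TMM), which shifts every gene by 0.35 on the log2 scale, lowered the mitochondrial log2 ratio to 0.53. Averaged over cells with equal weight, the log2 ratio of the shares was only 0.18, since shallow Control cells with a high share then weigh as much as deep ones.

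**Figure D1:**
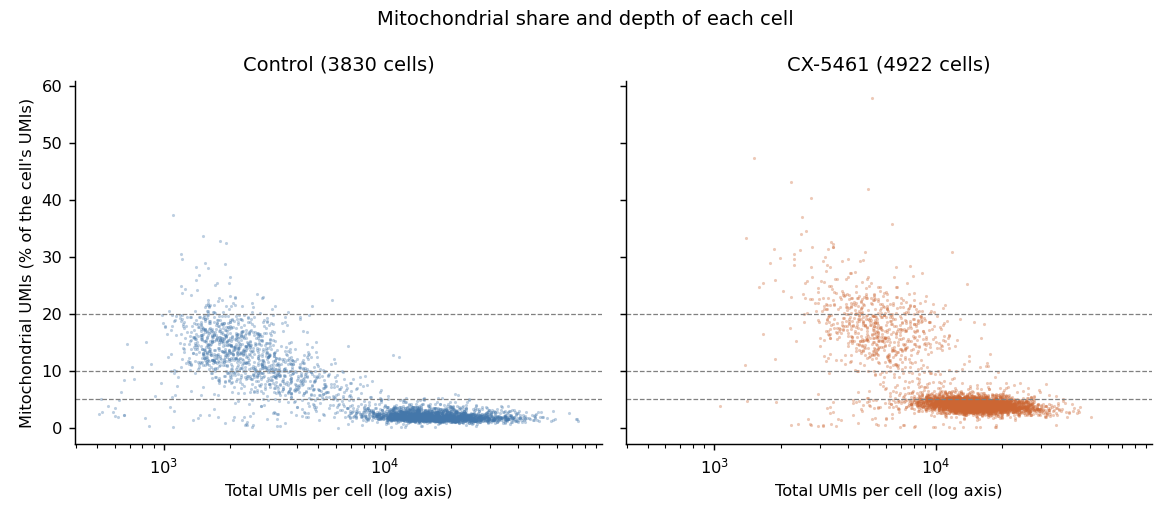
Mitochondrial UMIs as a percentage of each cell's UMIs (vertical axis) against the total UMIs of the cell (horizontal log axis), with 1 point per cell for Control (3830 cells) and CX-5461 (4922 cells). Dashed lines mark 5, 10 and 20%; the main cloud of deep cells lies higher in CX-5461 (median share over all cells 4.16%) than in Control (2.36%), and the cloud of high-share cells is deeper in CX-5461 (median 5711 UMIs between 10 and 20%) than in Control (2056 UMIs).

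The difference was present across the range of depth. The CX-5461 share exceeded the Control share in each of the 7 bins of total UMIs that held at least 20 cells of both libraries. The smallest ratio, 1.68, was in cells of 2000 to 4000 UMIs (11.4% in Control, 19.1% in CX-5461), and the largest, 2.39, in cells of 8000 to 12000 UMIs (2.37% and 5.66%). In cells of 16000 to 24000 UMIs the shares were 1.96% in 876 Control cells and 3.94% in 1404 CX-5461 cells. With the Control and CX-5461 cells weighted to the same depths, the shares became 3.98% and 7.77%, a log2 ratio of 0.96.

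Cells with a high mitochondrial share were fewer in CX-5461 when all cells were counted. Of the Control cells, 68.8% had a share of at most 5% (low), 9.40% a share over 5 and up to 10% (middle), 20.1% a share over 10 and up to 20% (high), and 1.64% a share over 20%. The corresponding percentages in CX-5461 were 75.03, 10.5, 9.85 and 4.57%. Cells over 10% were thus fewer in CX-5461 by 7.35 percentage points (interval of the difference 5.70 to 9.01). This direction turned with depth. The high Control cells had a median of 2056 UMIs and the high CX-5461 cells one of 5711. With cells of at least 3000 UMIs the CX-5461 percentage was 8.89 points above Control, and at matched depths it was 13.7 points above. In cells of 4000 to 8000 UMIs, 17.2% of 256 Control cells and 78.6% of 575 CX-5461 cells were over 10%.

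The high-share cells differed from the low-share cells in nuclear RNA as well. Malat1, an RNA retained in the nucleus, went from 2999 CPM in low to 10344 CPM in high Control cells, and from 3871 to 8724 CPM in CX-5461 cells. Neat1, another such RNA at far lower levels, went the other way in Control, from 56.3 to 24.3 CPM. In CX-5461 Neat1 went from 56.8 to 71.3 CPM. Ribosomal protein mRNAs went from 28.6 to 19.7% of UMIs in Control and from 23.6 to 14.2% in CX-5461. The part that loss of cytoplasmic RNA or free RNA had in the mitochondrial shares was not tested. Because the 2 libraries fill the strata with cells of different depth and share, the composition of the mitochondrial RNA itself was compared next, as the share of each transcript among all mitochondrial UMIs, which does not depend on the nuclear total.

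On the CPM scale, 7 of the 15 detected transcripts (46.7%) were at least 1.5-fold higher in CX-5461 and 2 (13.3%), mt-Atp8 and mt-Nd6, at least 1.5-fold lower. Over all 12399 genes with at least 200 UMIs the same limits were passed by 34.6% upward and 8.06% downward. The median log2 ratio of the 15 transcripts was 0.57, against 0.34 for all genes. After TMM scaling 4 transcripts were higher, namely mt-Rnr2, mt-Nd2, mt-Co2 and mt-Atp6, and 4 were lower, namely mt-Atp8, mt-Nd3, mt-Nd6 and mt-Nd4l, while 19.8% of all genes were higher and 17% lower on that scale.

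The order of the transcripts was similar in both libraries, and it was led by subunits of complexes IV and V. Per kilobase of annotated transcript, mt-Co3, a cytochrome c oxidase (complex IV) subunit, stood highest in Control at 7512 CPM per kilobase, followed by mt-Atp6, the proton channel subunit of the ATP synthase, at 7077 CPM per kilobase. In CX-5461 mt-Atp6 came first at 16509 CPM per kilobase and mt-Co3 second at 13484 CPM per kilobase. The complex I subunit mt-Nd1 and the complex IV subunit mt-Co2 also exchanged places, at 4319.5 and 3942 CPM per kilobase in Control and 6276 and 9594 CPM per kilobase in CX-5461. The lowest level in both libraries was that of mt-Nd6, a complex I subunit, at 7.88 and 3.72 CPM per kilobase. In Control, mt-Nd2 (503 CPM per kilobase) and mt-Nd3 (499.6 CPM per kilobase) could not be ordered within counting error on this scale. Neither could mt-Nd5 (40.3 CPM per kilobase) and mt-Atp8 (37.6 CPM per kilobase). Since a 3′ protocol counts each molecule from its 3′ end, these ties came from the division by length. In Control UMIs the pairs were far apart, at 25893 against 8624 and at 3647 against 380. Both mitochondrial rRNAs, which are structural parts of the mitochondrial ribosome, stood among the lower transcripts in these counts. How fully the 3′ protocol captured each kind of RNA was not tested, so this rank need not be their rank in the cells. The mt-Rnr2 level was 103 CPM per kilobase in Control and 211 CPM per kilobase in CX-5461, below mt-Nd3 and above mt-Nd4l and mt-Nd5 in both libraries. The mt-Rnr1 level was 29.1 and 42.8 CPM per kilobase, next to last in Control.

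**Figure D2:**
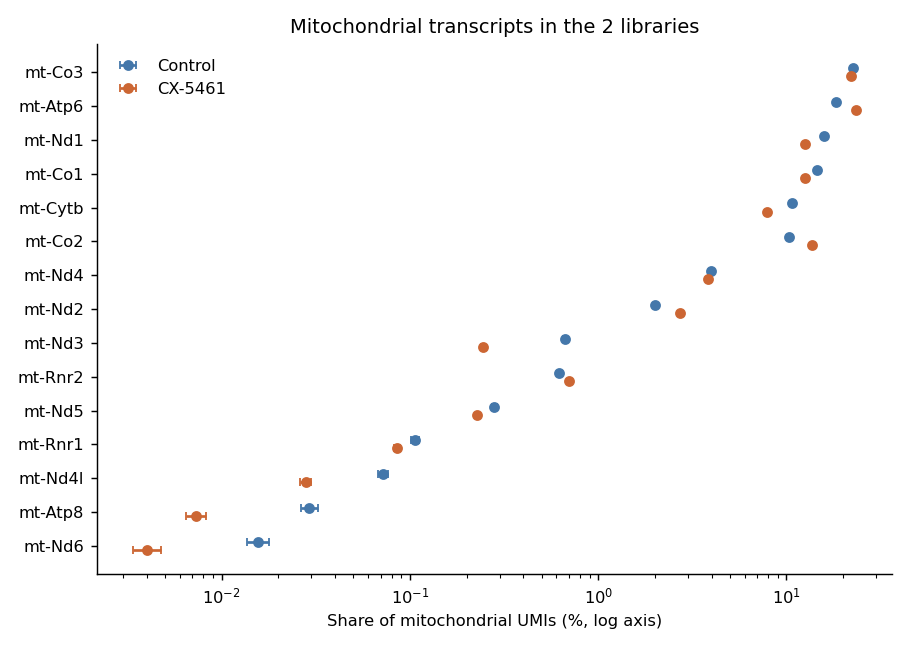
Share of all mitochondrial UMIs (horizontal log axis, %) taken by each of the 15 detected transcripts in Control and CX-5461, over all cells of each library. Bars are 95% Clopper-Pearson intervals for counting error, mostly smaller than the points; mt-Nd3, mt-Nd4l, mt-Atp8 and mt-Nd6 lie far lower in CX-5461, while the other transcripts stay within 1.5-fold.

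The 4 transcripts with the largest differences in share were all lower in CX-5461, and each took under 1% of mitochondrial UMIs. The mt-Atp8 share was 0.0293% in Control (380 UMIs) and 0.00732% in CX-5461 (245 UMIs), 4.00-fold lower (log2 interval -2.24 to -1.76). The mt-Nd6 share was 0.0156% (203 UMIs) and 0.00403% (135 UMIs), 3.88-fold lower (log2 interval -2.28 to -1.63). No cell held more than 3 UMIs of mt-Atp8 or 2 of mt-Nd6.

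Of the others, mt-Nd3, a core complex I subunit, was the most abundant of the 4. Its share was 0.664% in Control (8624 UMIs) and 0.245% in CX-5461 (8203 UMIs), 2.71-fold lower (log2 -1.44, interval -1.48 to -1.39). The mt-Nd4l share was 0.0718% and 0.0279%, 2.58-fold lower on 933 and 934 UMIs (log2 interval -1.50 to -1.23). No transcript reached a 1.5-fold higher share over all cells.

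Among the other mRNAs the shares differed by less than 1.5-fold, in both directions. The mt-Nd2 share, of a complex I subunit, went from 1.99 to 2.72% (log2 0.45), mt-Co2 from 10.3 to 13.7% (log2 0.41) and mt-Atp6 from 18.4 to 23.5% (log2 0.35). The share of mt-Cytb, the only mitochondrially encoded subunit of complex III, went from 10.7 to 7.89% (log2 -0.44). The mt-Nd1 share went from 15.8 to 12.5% (log2 -0.33) and that of mt-Co1, the catalytic subunit of complex IV, from 14.6 to 12.6% (log2 -0.21). The mt-Nd5 share, of a large complex I subunit, went from 0.281 to 0.228% (log2 -0.30). The smallest differences were those of mt-Co3, at 22.5 and 22.1% (log2 -0.03), and mt-Nd4, a proton-pumping subunit of complex I, at 3.97 and 3.81% (log2 -0.06).

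The spread of these shares over cells differed between the transcripts. Among cells with at least 200 mitochondrial UMIs (3243 in Control, 4860 in CX-5461) the quartiles of the mt-Atp6 share were 14.3 and 20.9% in Control and 21.5 and 25.2% in CX-5461, so they did not overlap. The mt-Co2 quartiles were 7.12 and 12.9% in Control and 12.6 and 14.99% in CX-5461, and the mt-Cytb quartiles 8.57 and 12.7% against 6.50 and 8.77%, which overlapped at the edge only. The mt-Co3 quartiles, 19.3 and 26.4% against 20.2 and 24.8%, overlapped almost wholly, around medians that were both 22.8%. The mt-Nd3 quartiles, 0.245 and 0.895% in Control and 0 and 0.350% in CX-5461, overlapped too, as did those of mt-Nd1 and mt-Nd2. For mt-Atp8, mt-Nd6 and mt-Nd4l the median share was 0 in both libraries, so quartiles cannot show how many cells shared their differences. The mt-Co2 share was also more even across CX-5461 cells than across Control cells. In CX-5461, 5% of cells lay below 10.8% and 5% above 17.0%, and in Control 5% lay below 5.15% and 5% above 16.7%. CX-5461 cells held more mitochondrial UMIs (median 620 against 302 over all cells). The part of counting error in these spreads was not tested.

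Summed by respiratory complex, the 7 complex I mRNAs took 22.8% of mitochondrial UMIs in Control and 19.6% in CX-5461 (log2 -0.22). The 3 complex IV mRNAs were nearly level at 47.4 and 48.3% (log2 0.03), because mt-Co2 was higher while mt-Co1 was lower. The 2 ATP synthase mRNAs took 18.4 and 23.5% (log2 0.35), nearly all of which was mt-Atp6. Complex III, with mt-Cytb alone, was the lowest of the 4 sums in both libraries.

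Ratios between transcripts of 1 cell population set neighbours on the genome side by side. The mt-Atp8 to mt-Atp6 ratio was 0.159% in Control and 0.0312% in CX-5461, a 5.09-fold difference (log2 interval -2.58 to -2.12), although these open reading frames overlap. The mt-Nd4l to mt-Nd4 ratio went from 1.81 to 0.732% (log2 -1.31), and the ratio of mt-Nd3 to mt-Co3, the mRNA just upstream, from 2.95 to 1.11% (log2 -1.41). The ratio of mt-Nd6 to the 12 heavy-strand mRNAs, those on the plus strand of the reference, went from 0.0157 to 0.00406% (log2 -1.95).

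The ratios among abundant mRNAs moved less. The mt-Co2 to mt-Co1 ratio was 0.706 in Control and 1.09 in CX-5461 (log2 0.62, interval 0.61 to 0.64), mt-Atp6 to mt-Co3 was 0.818 and 1.06 (log2 0.38), and mt-Co2 to mt-Nd1 was 0.652 and 1.09 (log2 0.74). For each of these ratios, which use UMIs not divided by length, the transcripts changed order between the libraries over all cells. The mt-Nd1 to mt-Cytb ratio stayed closest, at 1.48 and 1.59 (log2 0.10). Part of the change in order was absent at the same mitochondrial share. In Control cells with a share over 3 and up to 5%, mt-Co2 (12.98% of mitochondrial UMIs) already stood above mt-Co1 (12.75%). There mt-Atp6 (20.8%) also stood above mt-Co3 (20.4%), as in CX-5461. Only mt-Co2 and mt-Nd1 still differed in order, at 13.0 and 14.4% in Control and 13.9 and 11.6% in CX-5461.

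The rRNAs did not move together. Summed, they took 0.728% of mitochondrial UMIs in Control and 0.782% in CX-5461 (log2 0.10, interval 0.07 to 0.14), but mt-Rnr1, of the small subunit, went from 0.106 to 0.0853% (log2 -0.32) and mt-Rnr2, of the large subunit, from 0.622 to 0.697% (log2 0.16). Their ratio, mt-Rnr2 to mt-Rnr1, was 5.85 in Control and 8.17 in CX-5461. The summed difference turned to -0.015 on the log2 scale with cells of at least 3000 UMIs and was 0.36 at matched depths, so its direction depended on which cells were counted.

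By stratum of mitochondrial share, the lower shares of mt-Atp8, mt-Nd3 and mt-Nd6 past 1.5-fold were found in all 4 strata, and that of mt-Nd4l in the low, middle and high strata. For mt-Nd3 the log2 ratios were -1.57 in low, -1.41 in middle and -1.22 in high cells, and -0.77 in cells over 20%, so the difference was smaller at higher shares. For mt-Atp8 they were -1.95, -1.82, -2.24 and -2.41, the last on 7 and 12 UMIs. For mt-Nd6 they were -1.71, -3.45, -1.95 and -2.02, with only 8 CX-5461 UMIs in the middle stratum and 4 Control UMIs over 20%, where the interval included no difference. For mt-Nd4l they were -1.45, -0.76, -1.36 and -0.44, again with an interval across no difference in cells over 20%.

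Among the abundant transcripts mt-Cytb kept nearly the same ratio in the first 3 strata, with log2 values of -0.43, -0.45 and -0.45, and reached -0.69 in cells over 20%. The mt-Co2 difference widened with the share, from 0.34 in low to 0.56 in middle, 0.62 in high and 0.65 in cells over 20%. The mt-Nd1 difference was -0.39 in low and -0.53 in middle cells but -0.15 in high and -0.06 in cells over 20%. The mt-Co3 share was slightly higher in CX-5461 in low cells (log2 0.04) and lower in high cells (log2 -0.21, 25.04% in Control and 21.7% in CX-5461). The mt-Nd2 share was higher in all 4 strata, by 0.40, 0.67, 0.50 and 0.55, and passed 1.5-fold in the middle one alone.

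**Figure D3:**
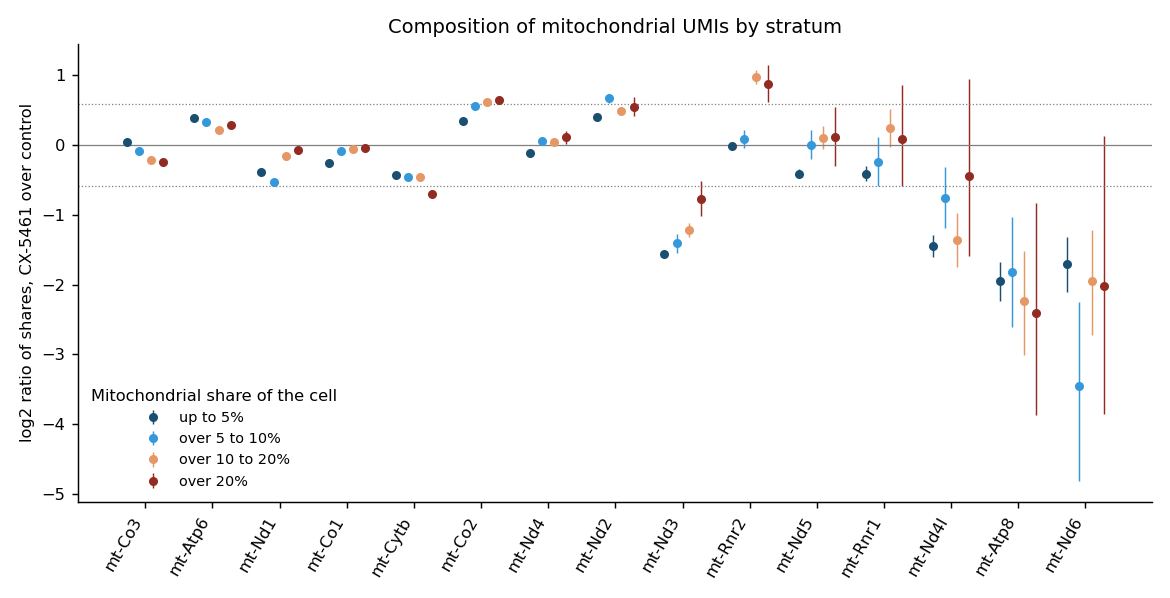
Log2 ratio of the share of mitochondrial UMIs, CX-5461 over Control, for the 15 detected transcripts (horizontal axis, ordered by their Control share) in cells with a mitochondrial share of up to 5%, over 5 to 10%, over 10 to 20% and over 20%. Bars are 95% counting intervals and dotted lines mark 1.5-fold; mt-Nd3 runs from -1.57 to -0.77 across the strata, mt-Co2 from 0.34 to 0.65, and mt-Rnr2 is near 0 in the first 2 strata and close to 1 in the others.

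By stratum, the rRNA share differed most in high-share cells. The rRNA share of mitochondrial UMIs was 0.818% in Control and 0.779% in CX-5461 in low cells (log2 -0.07) and 0.685 and 0.709% in middle cells (log2 0.05). In high cells it was 0.441% in Control and 0.817% in CX-5461 (log2 0.89, interval 0.79 to 0.99), and over 20% it was 0.496 and 0.860% (log2 0.79). Nearly all of this was mt-Rnr2, with 927 Control and 3530 CX-5461 UMIs in high cells (log2 0.98). With cells of at least 3000 UMIs the log2 ratio in high cells was 0.75 and that over 20% only 0.10.

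Within each library, the composition of high cells also differed from that of low cells. In Control, mt-Rnr1, mt-Rnr2 and mt-Nd5 had 0.542, 0.539 and 0.554 times the share in high cells that they had in low cells, mt-Co1 0.727 times and mt-Co2 0.785 times, while mt-Co3 was at 1.16 times and mt-Cytb at 1.12 times. In CX-5461, mt-Nd3 and mt-Nd1 had 1.33 and 1.31 times the share in high cells, mt-Co1 0.832 times and mt-Nd5 0.794 times, and mt-Rnr2 1.07 times. In CX-5461, mt-Rnr1 was at 0.849 times, mt-Co2 at 0.955 times and mt-Cytb at 1.10 times. The lower shares of mt-Co1, mt-Co2, mt-Nd5 and mt-Rnr1 in high cells were thus seen in both libraries. So were lower shares of mt-Nd2, mt-Nd4, mt-Nd4l and mt-Atp8, and higher shares of mt-Nd1 and mt-Cytb. The lower share of mt-Rnr2 was seen in Control alone. No difference between these within-library ratios was tested.

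The low stratum itself covers different ranges, since the pooled share of its cells was 1.98% in Control and 3.76% in CX-5461. A comparison at the same share, chosen after seeing the data, took the 291 Control and 3257 CX-5461 cells over 3 and up to 5%, whose median depths were 13098 and 14967 UMIs. There the same 4 transcripts were at least 1.5-fold lower in CX-5461 and none was higher. The mt-Nd3 difference was larger, with 0.909% in Control and 0.224% in CX-5461 (log2 -2.02, interval -2.11 to -1.93), the mt-Nd4l log2 ratio was -1.77 and the mt-Atp8 log2 ratio -1.70. That of mt-Nd6 rested on 11 Control UMIs and had an interval from -1.80 to 0.17.

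At this shared range the differences of mt-Co2 and mt-Nd2 were smaller, with log2 values of 0.10 and 0.10, and that of mt-Atp6 was 0.18. The mt-Co1 ratio became 0.04. The mt-Nd1 ratio of -0.31 was close to that over all cells, and the mt-Cytb ratio was -0.31. The summed rRNA ratio was -0.09 there, but it was not even along the share: in the 867 Control and 370 CX-5461 cells over 2 and up to 3%, rRNA took 0.851 and 1.26% of mitochondrial UMIs (log2 0.57, interval 0.49 to 0.65). Without collagen-rich cells (at least 5 UMIs over Col1a1, Col1a2 and Col3a1, the collagen genes of fibroblasts) the log2 ratio in that range was 0.30, and between 3 and 5% it was -0.18. The shares of mt-Co2, mt-Atp6, mt-Nd2 and mt-Nd3 were higher at higher mitochondrial shares among deep Control cells: mt-Co2 went from 9.57% of mitochondrial UMIs in cells over 1 and up to 2% to 13.0% in cells over 3 and up to 4%, and mt-Nd3 from 0.527 to 0.910%. The mt-Co1 share went the other way, from 17.6 to 12.8%. Between 5 and 7.5% the Control values turned back, to 9.45% for mt-Co2, in cells with a median of 4345 UMIs. The Control mt-Atp6 share was 18.6% there but 20.7% between 10 and 12.5%. In CX-5461 the mt-Co2 share stayed between 12.9 and 13.9% in every bin from 1% upward.

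**Figure D4:**
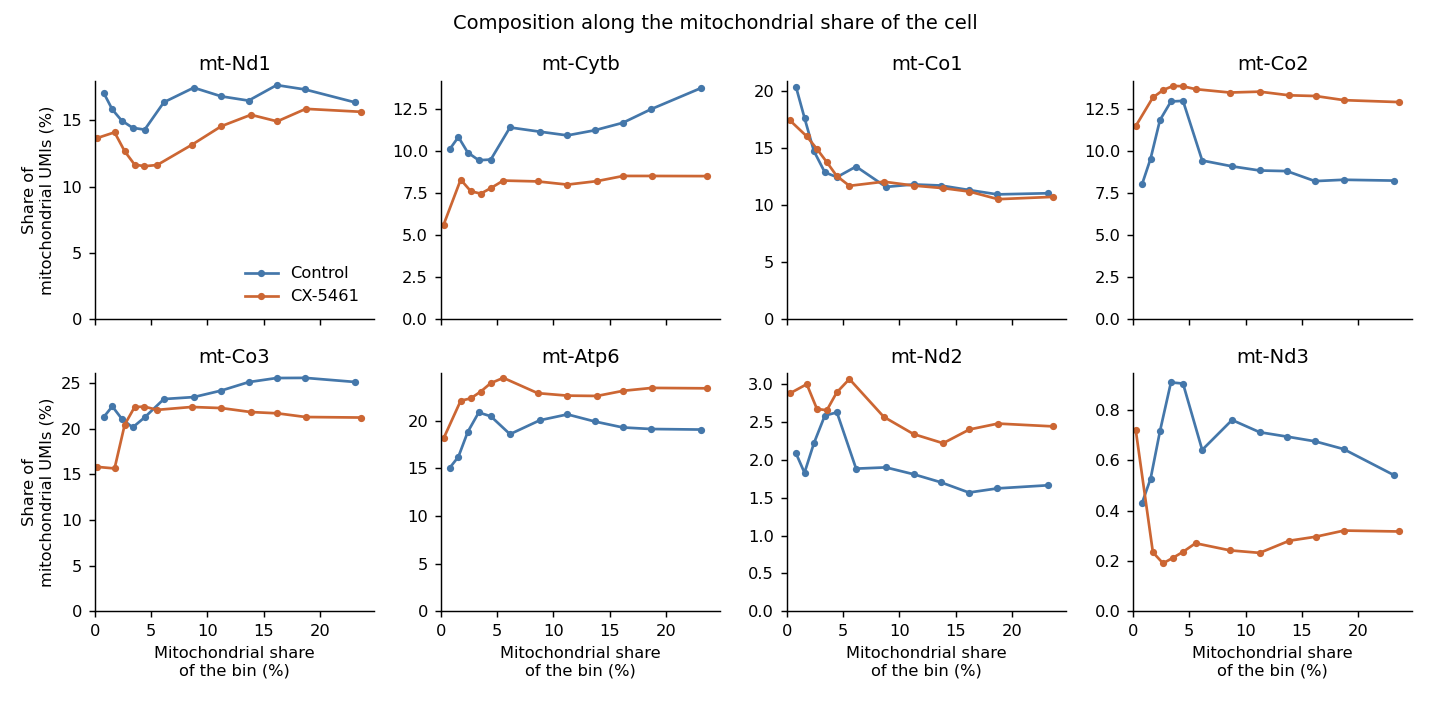
Share of mitochondrial UMIs (vertical axes, %) taken by 8 transcripts in bins of the mitochondrial share of the cell (horizontal axis: pooled share of the bin, %), for Control and CX-5461, 1 point per bin. Control mt-Co2, mt-Atp6 and mt-Nd2 rise toward the CX-5461 curves up to about 4% and are lower again between 5 and 7.5%. Beyond that mt-Atp6 returns to 20.7% between 10 and 12.5%. The curves of mt-Nd3 and mt-Cytb are separated between the libraries from 1% upward. The lowest CX-5461 bin holds 30 cells.

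The 4 transcripts with the lower shares have the shortest annotated lengths among the mitochondrial mRNAs. These are 204 (mt-Atp8), 297 (mt-Nd4l), 348 (mt-Nd3) and 519 bases (mt-Nd6), and the next in length, mt-Atp6 at 681 bases, was higher. For mt-Atp8 and mt-Nd4l this is the length of the gene, since the bicistronic mRNAs that hold them also include mt-Atp6 or mt-Nd4 and are longer. Short nuclear genes stood below longer ones too. The 55 protein-coding nuclear genes whose longest annotated transcript has at most 500 bases had a median log2 ratio of CPM of -0.69, with 29 of them at least 1.5-fold lower, against 0.34 over all 11009. Without ribosomal protein and histone genes, 29 genes remained at a median of -0.10, with 6 of them lower. Over all lengths, 6.49% of these nuclear genes were at least 1.5-fold lower, and 5.95% without ribosomal protein and histone genes. On the same CPM scale mt-Atp8 was at -1.13, mt-Nd6 at -1.08, mt-Nd3 at -0.57 and mt-Nd4l at -0.49. Of these, mt-Atp8, mt-Nd3 and mt-Nd4l lay above the lower quartile of the 55 short nuclear genes, -1.46, and below that of the 29 genes, -0.34. The mt-Nd6 length falls in the next bin, over 500 and up to 700 bases. Its lower quartile was -0.55 over 121 nuclear genes and -0.29 over 99 without ribosomal protein and histone genes, and mt-Nd6 lay below both. In the same bin mt-Atp6 was at 1.22 and mt-Co2 at 1.28. The part of transcript length or fragment size in these differences was not tested.

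**Figure D5:**
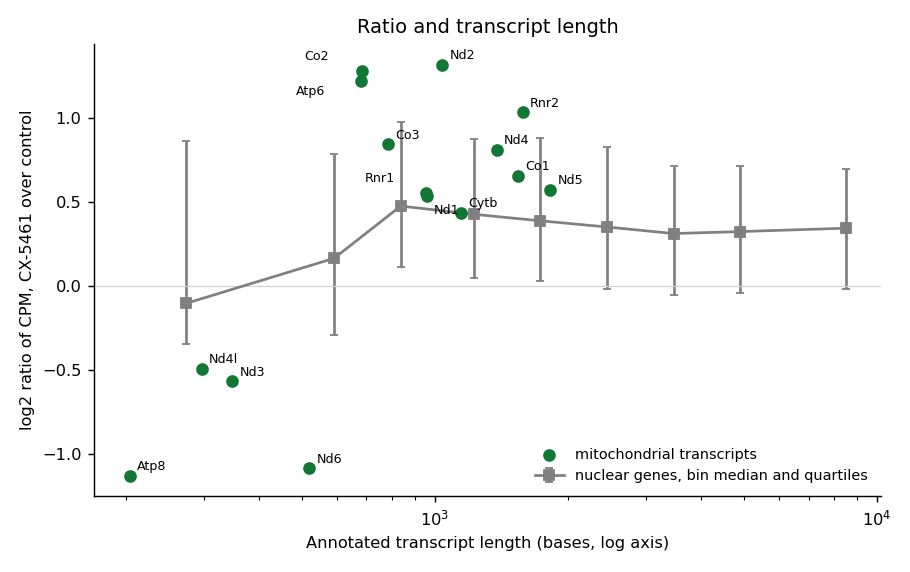
Log2 ratio of CPM, CX-5461 over Control (vertical axis), against annotated transcript length (horizontal log axis, bases) for the 15 mitochondrial transcripts (points) and for nuclear protein-coding genes without ribosomal protein and histone genes (squares: median of each length bin, bars: quartiles). The 4 mitochondrial mRNAs with the shortest annotated lengths lie between -1.13 and -0.49, and the shortest nuclear bin has a median of -0.10 against 0.35 over all lengths. The lengths of mt-Atp8 and mt-Nd4l are those of the genes, not of their bicistronic mRNAs. That bin ends at 500 bases, and mt-Nd6 at 519 bases falls in the next.

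The nuclear genes that serve mitochondrial RNA and DNA differed less in sum than the mitochondrial RNA itself. Most of the listed genes act in transcription, processing, modification, decay or translation of mitochondrial RNA. Some, such as Twnk, act in replication or upkeep of mitochondrial DNA. The list held 62 genes, of which 59 reached 200 UMIs. At least 1.5-fold higher on the CPM scale were 16 of them (background 34.6%) and 2 were lower (background 8.06%), with a median log2 ratio of 0.29 beside 0.34 for all genes. The summed level was 1545 CPM in Control and 1722 CPM in CX-5461. After TMM scaling 3 were higher and 7 lower, beside 19.8% and 17% of all genes.

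The genes past the lower limit were Trnt1 and Slirp. Trnt1, which adds the CCA end to tRNAs, was at 34.4 CPM in Control and 19.1 CPM in CX-5461 (log2 -0.85). Slirp, the partner of Lrpprc in keeping mitochondrial mRNAs stable, was at 274 and 176 CPM (log2 -0.64). Next lowest were Twnk, the helicase of mitochondrial DNA replication (log2 -0.52), Fastkd3 (log2 -0.36), a member of a family of mitochondrial RNA-binding proteins, and Tfb2m, the initiation factor of mitochondrial transcription (log2 -0.33).

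Among the genes with at least 200 UMIs, the highest ratio was that of Top1mt, the mitochondrial topoisomerase, at 2.92 CPM in Control and 13.1 CPM in CX-5461 (log2 2.16, from 145 and 912 UMIs). It was followed by Taco1, a translational activator of mt-Co1 (log2 1.12), Mterf2, of the mitochondrial termination factor family (log2 0.95), Fastkd1, of the same family as Fastkd3 (log2 0.91), and Polrmt, the mitochondrial RNA polymerase (log2 0.87). On the same CPM scale mt-Co1, the target of Taco1, was at 3816 CPM in Control and 6026 CPM in CX-5461. Its share of mitochondrial UMIs was lower in CX-5461 as given above.

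Nuclear-encoded subunits of the respiratory chain, which assemble with the mitochondrial ones, differed little in sum between the libraries. The 78 genes of that list summed to 31605 CPM in Control and 33572 CPM in CX-5461 (log2 0.09), with 16 at least 1.5-fold higher (20.5%, against 34.6% of all genes) and 9 lower (11.5%, against 8.06%), and a median log2 ratio of 0.18 beside 0.34 for all genes. The 13 mitochondrial mRNAs summed to 25988 and 47566 CPM (log2 0.87). The ratio of mitochondrial to nuclear respiratory chain mRNA was therefore 0.822 in Control and 1.42 in CX-5461.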

How the data were processed

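Single-cell RNA-seq of Control and CX-5461-treated ES cells was made with the 10x Genomics Single Cell 3′ V2 chemistry. The deposited tables hold UMI counts per gene and anonymous barcode, which the authors produced with a published droplet pipeline on mm10; per the submitters' notes they used Seurat 2.3.4 downstream. The aligner settings for gene counts and the annotation version were not given in the sources used here. A further deposited column gives the sum of counts shared between genes.

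Gene identifiers were matched to GENCODE annotation on GRCm38 (54079 of 54146), from which lengths and sequences were taken. Barcodes with at least 500 UMIs were kept, high mitochondrial shares included. Doublets were not removed, and barcodes shared between libraries could not be counted because the names are anonymous. UMIs were summed per library and stratum of mitochondrial share (limits 0.05, 0.1 and 0.2). Shares carry Clopper-Pearson intervals, ratios of shares conditional binomial intervals and ratios between transcripts log intervals, all at 95% (scipy 1.17.1). A gene counted as higher or lower at 1.5-fold, given at least 200 UMIs over both libraries. TMM factors came from edgeR 4.0.16. Intervals were tested on simulated data. With 1 library per condition there was no test. Every mitochondrial mRNA and rRNA is named, and of the machinery list the 5 highest and 5 lowest. The members and lists were chosen with earlier results of these data known. Alternatives were other depth and share limits, equal weight per cell, depth matching, TMM, and leaving out collagen-rich cells.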

Additional observations from a re-analysis of the deposited data

How the results depend on the processing

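Of 88 recomputed values, 55 stayed within counting error of the reported one (or within 1.5-fold for counts of genes or transcripts). The sign differed in 8, namely 2 for cells over 0.1 and 6 for small rRNA ratios. The number of transcripts with a share at least 1.5-fold lower was 4, and of those higher 0, in each alternative run for that count. The cause of the other changes was not tested. The log2 ratio of the mitochondrial share was 0.53 with the TMM factor, 1.09 with at least 3000 UMIs per cell, 0.81 with cells of at most 0.2, 0.96 at matched total UMIs, 0.18 as a mean over cells and 0.87 without collagen-rich cells. Cells over 0.1 were 10.1 points fewer in CX-5461 (-10.1) with cells of at most 0.2, but 8.89 points more with at least 3000 UMIs and 13.7 points more at matched total UMIs. The rRNA share had a log2 ratio of -0.015 with at least 3000 UMIs, 0.36 at matched depth, 0.18 as a mean over cells, 0.054 without collagen-rich cells and -0.094 at shares over 0.03 and up to 0.05. By stratum it was -0.044 (middle), 0.75 (high) and 0.10 (over 0.2) with at least 3000 UMIs, 0.088, -0.18 and 0.79 (low, middle, high) with limits of 0.04, 0.08 and 0.15, and -0.17 (low) without collagen-rich cells. The rRNA to mRNA ratio was -0.015 with at least 3000 UMIs and 0.055 without collagen-rich cells. With at least 3000 UMIs, mt-Atp6 to mt-Co3 was 0.36 and mt-Co2 to mt-Nd1 0.67. With cells of at most 0.2, mt-Co2 to mt-Nd1 was 0.77, mt-Nd1 to mt-Cytb 0.073 and mt-Nd3 to mt-Co3 -1.46. Without collagen-rich cells, mt-Atp6 to mt-Co3 was 0.36, mt-Co2 to mt-Co1 0.60, mt-Co2 to mt-Nd1 0.77 and mt-Nd1 to mt-Cytb 0.087. With the TMM factor the machinery list had 3 genes higher and 7 lower. The share of the 22 tRNAs could not be compared, since all were at 0. No paired analysis was possible because each table pools the samples of a condition and no column names a sample, and for the same reason no sample could be left out in turn. Depth limits mt-Nd6 and mt-Atp8 most, with 135 and 245 UMIs in CX-5461.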

Other observations

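Feeder-type cells were present in both libraries and had a mitochondrial composition of their own. Cells with at least 5 UMIs over the collagen genes Col1a1, Col1a2 and Col3a1 numbered 191 in Control and 158 in CX-5461, with the fibroblast list at 28140.1 and 23999 CPM and Pou5f1 at 52.5 and 21.02 CPM. They were chosen by these genes, so those levels describe the choice. Their mitochondrial share was 2.01% in Control and 3.41% in CX-5461, below the 2.68 and 4.88% of the other cells. The mt-Co1 share of their mitochondrial UMIs was 21.3% in Control and 17.1% in CX-5461, against 14.1 and 12.4% in the other cells. Their rRNA share was 1.29 and 2.44%, against 0.688 and 0.714%. The mt-Co3 share was 21.5% in Control collagen-rich cells and 15.6% in CX-5461 ones, against 22.6 and 22.3% in the other cells. The mt-Nd3 share was lower in CX-5461 in both kinds of cell, at 0.354 and 0.130% in collagen-rich cells and at 0.687 and 0.250% in the others.

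Markers of other cell types were scarce. A list of 6 primitive endoderm genes summed to 2.98 CPM in Control and 5.58 CPM in CX-5461, and 4 haemoglobin genes of red blood cells to 0.222 CPM (11 UMIs) and 5.03 CPM (351 UMIs). A list of 5 nuclear-retained RNAs, led by Malat1, summed to 3907 and 4781 CPM, and 76 ribosomal protein genes took 28.1 and 23.0% of UMIs.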
